A study of Homo sapiens with 16 samples.

Results

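The zinc finger genes of human chromosome 19 were examined as a group: the protein-coding genes of that chromosome whose symbol starts with ZNF in a RefSeq gene table of GRCh38.p14 (hg38). The rule used the gene symbols and positions alone and found 250 members among the 1451 protein-coding genes of the chromosome (17.2%). The remaining 1201 protein-coding genes of chromosome 19 served as the comparison. The members lay mostly in runs of neighbours, and 230 of them fell into 12 clusters, each with at least 5 members and less than 250 kb between neighbours. The other 20 members stood outside such clusters.

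The data were chromatin immunoprecipitation sequencing (ChIP-seq) peaks from HEK293T, an established cell line derived from human embryonic kidney and labelled wild type. HDGF, which binds chromatin through its PWWP domain, was precipitated from cells with a control depletion and from cells grown without glucose for 24 h (starvation). INTS13, part of Integrator, a complex that cuts nascent transcripts, was precipitated from cells with a control depletion, from cells treated for 72 h with a pool of small interfering RNAs against HDGF (HDGF depletion), and from cells starved in the same way. Per the labels, 10 ChIP samples formed 5 groups of 2 replicates, and 6 inputs completed the 16 samples. The replicates of a group share 1 deposited list of peaks. No value therefore has a replicate error, and no comparison between lists was tested. Starved cells were probed with an INTS13 antibody from Proteintech, and the other INTS13 groups with one from Bethyl, so for INTS13 the effects of starvation and of the antibody cannot be told apart. The HDGF antibody came from Proteintech in both HDGF groups. Titles of the control groups name a control depletion, and those of the starved groups name none. Any effect of the control depletion therefore cannot be told apart from that of starvation, for either protein. The study asked whether INTS13 changes its genomic positions in starved cells or after the loss of HDGF. Peak lists hold no expression values, so neither the loss of HDGF nor the identity of the cell line could be checked from them.

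Most ZNF genes of chromosome 19 encode C2H2 zinc finger proteins, which bind DNA through repeated finger modules, and many of these also carry a Krüppel-associated box (KRAB). The KRAB domain recruits the scaffold protein TRIM28, which brings in the histone methyltransferase SETDB1 and HP1 proteins and thereby heterochromatin, mainly at transposable elements. The family grew by tandem duplication, which left clusters of similar neighbouring genes, and the bodies of many of these genes are themselves known to carry histone H3 lysine 9 trimethylation. How reads that match several similar copies were treated is not given in the sources used here.

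Promoter sequences from RefSeq (GRCh38.p14) were at hand for 219 of the 250 members, each holding 250 bases before and 50 after the annotated start. Promoters are printed here for 4 members whose window was overlapped by a peak, and for comparison for 2 long members without a peak in any list. ZNF507 (chr19:32345360-32345659, plus strand) was overlapped by an INTS13 peak in control cells, and ZNF784 (chr19:55624517-55624816, minus strand) and ZNF579 (chr19:55580799-55581098, minus strand) by INTS13 peaks after HDGF depletion. ZNF628 (chr19:55476367-55476666, plus strand) was overlapped by an HDGF peak in starved cells. At ZNF628 and ZNF579 only an edge of the peak reached the window, with the summits 353 and 494 bases upstream of the start, outside it. ZNF91 (chr19:23395422-23395721, minus strand) and ZNF577 (chr19:51887902-51888201, minus strand) had no peak. Each is printed 5′ to 3′ along the gene's strand, and capitals mark matches, on either strand, of the 6 motifs described with the promoter results.
ZNF507: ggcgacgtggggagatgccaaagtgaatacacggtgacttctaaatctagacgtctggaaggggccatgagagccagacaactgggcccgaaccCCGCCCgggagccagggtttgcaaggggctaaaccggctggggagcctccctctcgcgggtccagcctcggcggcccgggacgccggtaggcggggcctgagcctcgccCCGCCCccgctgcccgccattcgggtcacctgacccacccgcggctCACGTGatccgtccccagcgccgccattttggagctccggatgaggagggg
ZNF784: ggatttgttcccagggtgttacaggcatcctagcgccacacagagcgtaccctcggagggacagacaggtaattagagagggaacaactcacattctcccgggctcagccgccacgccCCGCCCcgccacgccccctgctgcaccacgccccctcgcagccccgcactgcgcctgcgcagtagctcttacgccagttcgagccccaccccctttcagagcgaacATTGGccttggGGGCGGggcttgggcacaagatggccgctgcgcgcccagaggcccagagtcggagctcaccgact
ZNF579: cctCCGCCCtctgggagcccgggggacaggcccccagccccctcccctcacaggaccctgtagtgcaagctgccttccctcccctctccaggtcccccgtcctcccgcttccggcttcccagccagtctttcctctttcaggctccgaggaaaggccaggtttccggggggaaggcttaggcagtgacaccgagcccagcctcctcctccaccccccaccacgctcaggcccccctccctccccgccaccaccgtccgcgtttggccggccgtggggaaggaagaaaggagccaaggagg
ZNF628: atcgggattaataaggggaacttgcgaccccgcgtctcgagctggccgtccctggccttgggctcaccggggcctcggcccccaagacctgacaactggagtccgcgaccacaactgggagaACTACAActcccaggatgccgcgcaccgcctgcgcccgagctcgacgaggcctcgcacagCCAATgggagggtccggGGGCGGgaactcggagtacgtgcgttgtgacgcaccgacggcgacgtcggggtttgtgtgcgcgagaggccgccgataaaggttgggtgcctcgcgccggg
ZNF91: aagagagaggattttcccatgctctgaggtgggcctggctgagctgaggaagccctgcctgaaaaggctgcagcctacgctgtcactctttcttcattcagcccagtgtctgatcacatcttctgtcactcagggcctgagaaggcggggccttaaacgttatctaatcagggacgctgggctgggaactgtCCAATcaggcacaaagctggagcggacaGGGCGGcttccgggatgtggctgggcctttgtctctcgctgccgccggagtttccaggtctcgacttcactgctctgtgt
ZNF577: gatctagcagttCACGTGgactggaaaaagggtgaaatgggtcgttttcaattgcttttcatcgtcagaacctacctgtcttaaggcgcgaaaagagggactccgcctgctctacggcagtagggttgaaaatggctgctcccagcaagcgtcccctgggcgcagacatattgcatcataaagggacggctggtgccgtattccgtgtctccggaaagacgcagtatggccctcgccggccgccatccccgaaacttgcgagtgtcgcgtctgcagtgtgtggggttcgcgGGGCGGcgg

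Peaks at the chromosome 19 ZNF genes were sparse in all 5 lists. A boundary peak has its summit within 1 kb of a gene's start or end, and a body peak shares at least 1 base with the gene. A boundary peak of HDGF in control cells was found at 7 members (2.8%, exact 95% interval 1.13 to 5.68), against 17.8% of the other chromosome 19 genes and 19.3% of all 20033 protein-coding genes. For HDGF in starved cells the count was 13 members (5.2%, 2.8 to 8.73), against 32.1% of the other chromosome 19 genes and 21.7% of all genes. Both HDGF lists thus held members at shares well below those of their chromosome neighbours. INTS13 in control cells had a boundary peak at 1 member (0.4%, 0.0101 to 2.21), ZNF507, against 2.33% of the other chromosome 19 genes and 4.77% of all genes. After HDGF depletion INTS13 had one at 12 members (4.8%, 2.5 to 8.23), against 18.5% and 19.1%. In starved cells INTS13 had one at 4 members (1.6%, 0.438 to 4.05), against 3.08% and 6.71%. The intervals cover counting error only, and neighbouring members are not independent of each other.

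Over the gene body the gap in percentage points was wider. The ratio of other chromosome 19 genes to members was 6.51 for HDGF in control cells, against 6.36 for boundary peaks. In starved cells it was 5.41 for HDGF, against 6.18. For INTS13 in control, HDGF-depleted and starved cells it was 3.82, 2.52 and 1.8, against 5.83, 3.85 and 1.93. HDGF peaks of control cells lay over 15 members (6.0%, 3.4 to 9.7), against 39.1% of the other chromosome 19 genes and 45.5% of all genes. HDGF peaks of starved cells lay over 24 members (9.6%, 6.25 to 13.9), against 52.0% and 37.8%. The 3 members with a body peak of INTS13 in control cells (1.2%, 0.248 to 3.47) compared with 4.58% of the other chromosome 19 genes and 11.7% of all genes. INTS13 after HDGF depletion covered the most members of the 5 lists, 46 (18.4%, 13.8 to 23.8), against 46.3% and 46.0%. INTS13 in starved cells covered 6 members (2.4%, 0.886 to 5.15), against 4.33% and 10.3%.

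Expressed as members minus other chromosome 19 genes, the body share of HDGF differed by −33.1 percentage points in control cells (95% Newcombe interval −36.7 to −28.5) and by −42.4 points in starved cells (−46.5 to −37.2). The body share of INTS13 differed by −27.9 points after HDGF depletion (−33.1 to −21.9) and by −3.38 points in control cells (−4.93 to −0.883). In starved cells the INTS13 difference was −1.93 points and its interval, −3.77 to 0.988, included 0. The boundary shares differed by −15.0 points (−17.7 to −11.5) and −26.9 points (−30.4 to −22.6) for HDGF in control and starved cells and by −13.7 points (−16.8 to −9.69) for INTS13 after HDGF depletion. For the boundary peaks of INTS13 in control and starved cells the intervals included 0 (−3.0 to 0.0333 and −2.98 to 1.1), so no difference from the other chromosome 19 genes was detectable there.

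**Figure D1:**
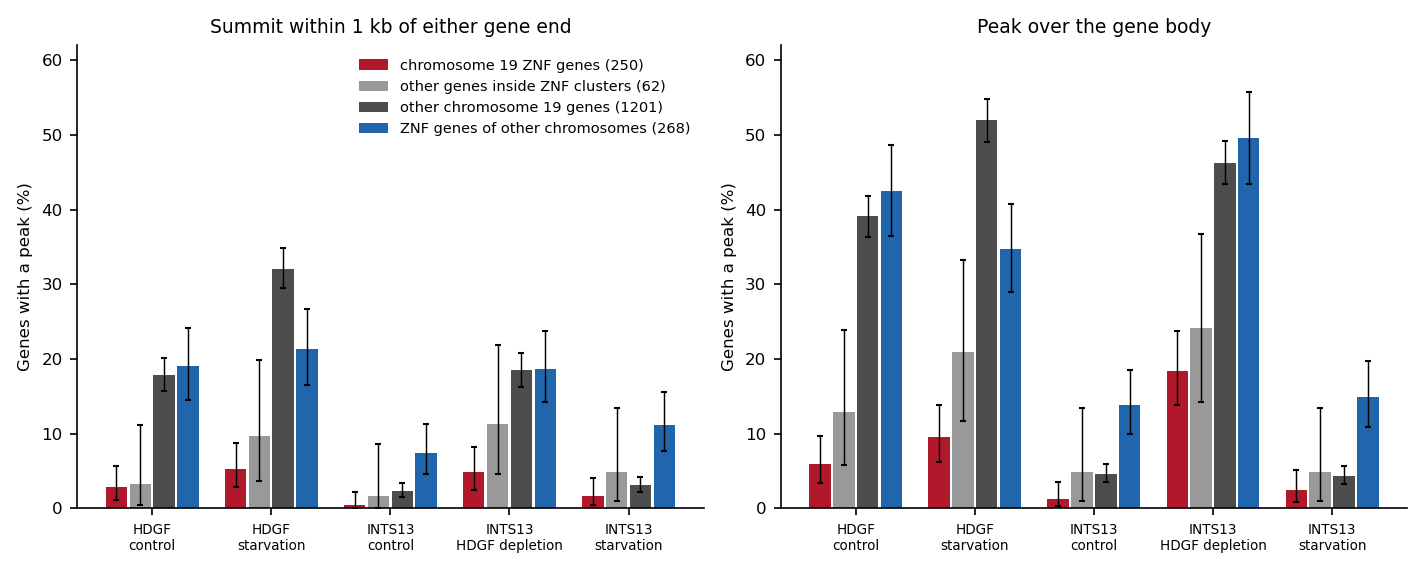
Share of genes (%) with a summit within 1 kb of either gene end (left) or a peak over the gene body (right) in each of the 5 peak lists, for 4 sets of genes, with exact 95% intervals for counting error as bars. The red bars of the 250 chromosome 19 ZNF genes reach at most 18.4%, for body peaks of INTS13 after HDGF depletion.

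ZNF genes of other chromosomes did not share this low level. The 268 protein-coding ZNF genes elsewhere in the genome had an HDGF body peak in 42.5% of cases in control cells and 34.7% in starved cells, and an INTS13 body peak in 13.8%, 49.6% and 14.9% for control, HDGF depletion and starvation. The chromosome 19 members differed from them by −36.5 points (−43.0 to −29.7) for HDGF in control cells. The difference was −12.5 points (−17.5 to −7.87) for INTS13 in starved cells, the list in which the difference from chromosome 19 neighbours was not detectable. For INTS13 in control and starved cells the other chromosome 19 genes were at 4.58% and 4.33%, against 11.7% and 10.3% of all genes. In those lists a low share was thus not particular to the ZNF genes of the chromosome. The bar plot of shares by list shows both sets side by side.

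The 62 protein-coding genes of other names that lie inside the spans of the ZNF clusters were closer to the members in the HDGF lists and after HDGF depletion. Their body shares were 12.9% and 21.0% for the control and starvation lists of HDGF, and 4.84%, 24.2% and 4.84% for INTS13 in control, HDGF-depleted and starved cells. Inside the cluster spans, members held 1.31 and 4.92 HDGF summits per Mb of gene body in control and starved cells, and these genes 16.4 and 18.3. INTS13 summits there numbered 0.164, 8.2 and 0.82 per Mb in members and 3.86, 25.1 and 3.86 in these genes. The INTS13 control and starvation values rest on 1 and 5 summits in members and on 4 each in these genes. The 10 boundary and body differences in share from these genes were taken over all 250 members, those outside clusters included. Only the difference in HDGF body peaks of starved cells, −11.4 points, had an interval that excluded 0 (−23.4 to −2.04). Conversely, the 20 members outside clusters had body shares of 35.0% and 25.0% for the control and starvation lists of HDGF, against 3.48% and 8.26% for the 230 members inside clusters. For INTS13 the shares outside and inside clusters were 10.0% and 0.435% in control cells, 45.0% and 16.1% after HDGF depletion, and 10.0% and 1.74% in starved cells. Other chromosome 19 genes outside clusters had body shares of 40.5% and 53.6% in the control and starvation lists of HDGF and 4.57%, 47.5% and 4.3% for INTS13 in control, HDGF-depleted and starved cells. In the HDGF lists and after HDGF depletion, shares inside clusters were thus lower than outside for ZNF genes and for genes of other names, while in the INTS13 control and starvation lists the genes of other names had similar shares inside and outside. The 20 members outside clusters lay near these genes in the HDGF control list and after HDGF depletion, below them for HDGF in starved cells (25.0%, exact 95% interval 8.66 to 49.1), and above them in the other INTS13 lists, where they rest on 2 members each.

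Gene length went with body peaks differently in members and other genes. Members were longer than the other chromosome 19 genes, with medians of 23.3 kb and 12.7 kb, and ranged from 2.47 kb (ZNF580) to 488.0 kb (ZNF536). Among chromosome 19 genes over 22.6 kb, an HDGF body peak of control cells lay over 4.51% of members and 55.0% of other genes, and an INTS13 body peak after HDGF depletion over 16.5% and 75.2%. The share of the other genes with a body peak was higher in each longer class for these lists, while the long members had no higher share than the short ones in either HDGF list. For INTS13 after HDGF depletion the short, middle and long members had shares of 15.4%, 22.0% and 16.5%, with 4, 28 and 43 body peaks on 26, 91 and 133 genes. Members under 9.76 kb were not below the other short genes in 2 lists. Of these 26 members, 42.3% had a body peak of HDGF in starved cells (23.4 to 63.1), close to the 40.0% of the other short genes, and 1 had a body peak of INTS13 in starved cells (3.85%, 0.0973 to 19.6), against 2.18%. Several of the 11 short members with the HDGF peak were neighbours. ZNF628, ZNF579, ZNF524, ZNF784 and ZNF580 lie in 1 cluster of 0.169 Mb, in which all 7 members had such a peak.

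Promoter GC content differed between the sets, and in the HDGF lists and in INTS13 after HDGF depletion it went with the share of genes that held peaks. The median GC of the promoter window was 60.0% for members, 64.0% for other chromosome 19 genes and 62.7% for all genes. In the class with the lowest promoter GC (under 59.3%), HDGF body peaks of control cells lay over 2.91% of members and 25.9% of other genes. In the class with the highest GC (over 67.0%) the shares were 17.9% and 53.3%, and for HDGF in starved cells 32.1% and 70.7%. Members with higher promoter GC thus held peaks more often in the HDGF lists, and within each GC class they held them less often than their neighbours of the same class. The lowest and middle classes held 103 and 88 of the 219 members with a promoter, so the shares of the highest class rest on few genes. Some of these are neighbours: the cluster from ZNF628 to ZNF580, with a median GC of 68.7%, had an HDGF body peak of starved cells at all 7 members. For INTS13 after HDGF depletion the member shares were 18.4% and 28.6% in the lowest and highest GC classes, against 32.2% and 56.4% of other genes. The remaining INTS13 lists had at most 3 members with a body peak in a class. In starved cells the member shares were 1.94%, 3.41% and 0.0% from low to high GC, against 2.96%, 2.03% and 6.55% of other genes, and in control cells 0.0%, 2.27% and 3.57%, against 4.81%, 3.48% and 5.13%. The part of base composition in the low shares was not tested.

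**Figure D2:**
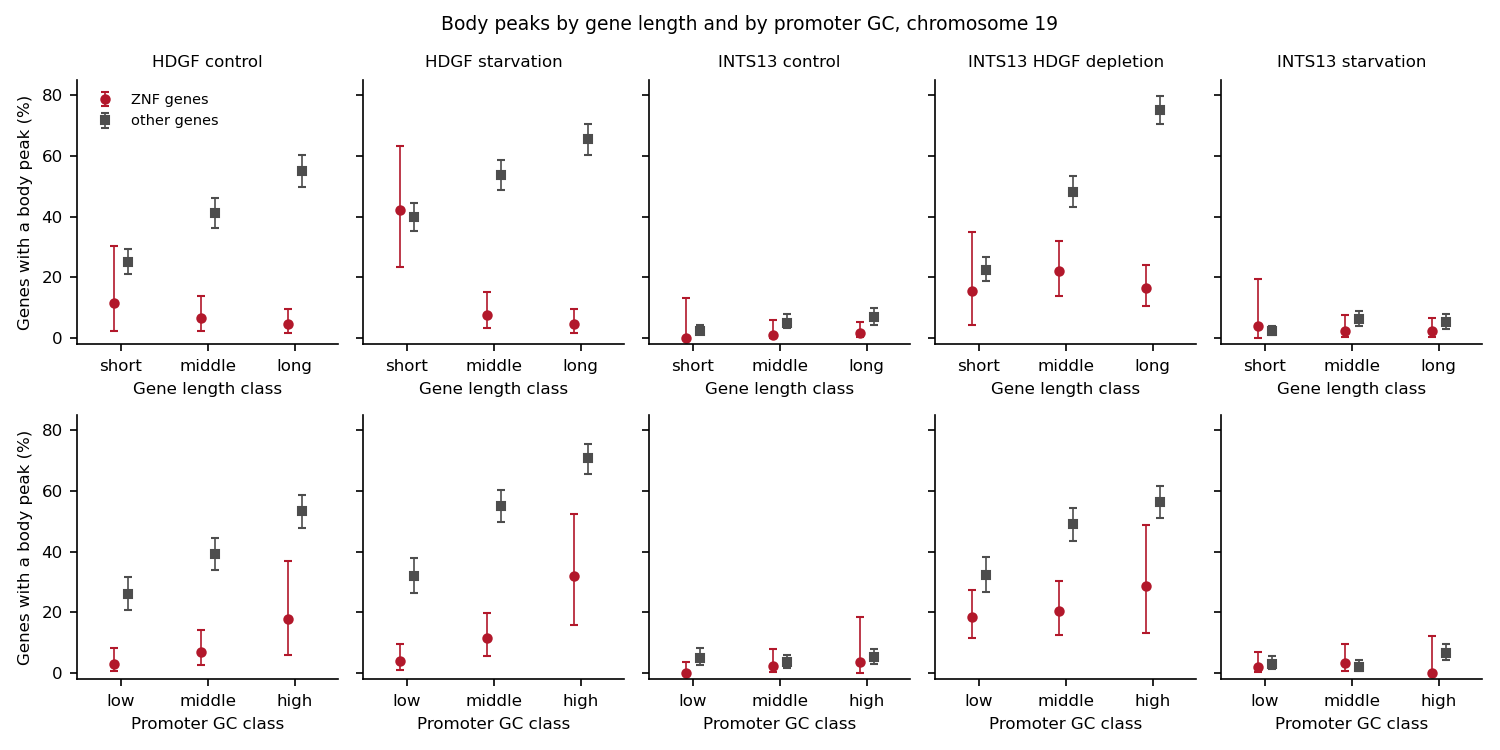
Share of chromosome 19 genes (%) with a body peak in 3 classes of gene length (top) and 3 classes of promoter GC (bottom), for ZNF genes (red circles) and other genes (grey squares) in each list, with exact 95% intervals. In the HDGF control and INTS13 HDGF depletion lists the grey squares climb from short to long genes, up to 55.0% and 75.2%, and the red circles stay at or below 22.0%.

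Counted per length of sequence, members held 2.67 summits per Mb of gene body for HDGF in control cells and 6.05 in starved cells, against 59.8 and 99.8 per Mb in the bodies of the other chromosome 19 genes. INTS13 summits in members numbered 0.281 per Mb in control cells, 10.4 after HDGF depletion and 0.985 in starved cells, against 3.16, 47.7 and 2.92 per Mb. The ratio of other genes to members was therefore 22.4 and 16.5 for the 2 HDGF lists and 11.2, 4.59 and 2.96 for the 3 INTS13 lists. The control and starvation ratios of INTS13 rest on 2 and 7 summits in members.

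The lists differed in length and in the background against which peaks were scored. They held 106674 and 68138 peaks for HDGF in control and starved cells and 31233, 105994 and 15639 for INTS13 in control, HDGF-depleted and starved cells. The background implied by the relation of fold to p was 6.69 and 7.41 reads per position for HDGF in control and starved cells and 6.4, 4.2 and 7.41 for INTS13 in control, HDGF-depleted and starved cells, after scaling for the starvation lists. The list with the most members covered, INTS13 after HDGF depletion, had the lowest background. Of all peaks in each list, 1.75% and 4.3% lay on chromosome 19 for HDGF in control and starved cells, and 0.826%, 1.93% and 1.41% for INTS13 in control, HDGF-depleted and starved cells. Every list was also reduced to its strongest 15639 peaks by p, with ties taken in order of chromosome name and position. Chromosome 19 peaks tied at the cut could thus enter or drop out together. HDGF body peaks then lay over 0.0% of members in control cells and 1.6% in starved cells. INTS13 body peaks then lay over 0.4%, 0.0% and 2.4% in control, HDGF-depleted and starved cells, so the HDGF-depletion list no longer stood above the other INTS13 lists. The part of the background in the differences between lists was not tested.

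The 12 clusters held peaks to very different degrees. The cluster from ZNF737 to ZNF91 (chr19:20530276-23395471) spanned 2.87 Mb with 25 members, and none of them had a peak in any list. Its whole span held 0 and 1 HDGF summits in control and starved cells and 1, 3 and 0 INTS13 summits in control, HDGF-depleted and starved cells. ZNF91 and ZNF43, KRAB zinc finger genes of that cluster, were among the members without a peak. ZNF91 is known to repress SVA retrotransposons. The 5 members from ZNF302 to ZNF792 (chr19:34675979-34964229) likewise had no peak. At the other extreme, all 7 members of the short cluster from ZNF628 to ZNF580 (chr19:55476617-55645623, 0.169 Mb) had a peak in at least 1 list, with 29.6 and 94.7 HDGF summits per Mb in control and starved cells and 5.92, 76.9 and 5.92 INTS13 summits per Mb. The INTS13 values of control and starved cells there rest on 1 summit each. This cluster had the highest median promoter GC of the 12, 68.7%. All 5 members from ZNF554 to ZNF77 (chr19:2819868-2944971, 65.0% GC) also had a peak, 4 of them over the body in the INTS13 list after HDGF depletion.

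Between these extremes, 12 of 25 members from ZNF653 to ZNF791 (chr19:11483429-12633834) had a peak, and 11 of them had a body peak of INTS13 after HDGF depletion. The telomeric cluster from ZNF264 to ZNF446 (chr19:57191500-58489533) had 12 of 43 members with a peak. The cluster from ZNF575 to ZNF180 (chr19:43530835-44500522) had 8 of 23, and that from ZNF565 to ZNF573 (chr19:36182060-37779586) had 3 of 26. Over all cluster spans together (12.2 Mb), HDGF summits numbered 3.02 and 5.31 per Mb in control and starved cells, against 39.4 and 61.9 per Mb on the rest of the chromosome. INTS13 summits numbered 1.88, 9.48 and 2.04 per Mb in control, HDGF-depleted and starved cells, against 5.07, 41.6 and 4.21 per Mb.

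**Figure D3:**
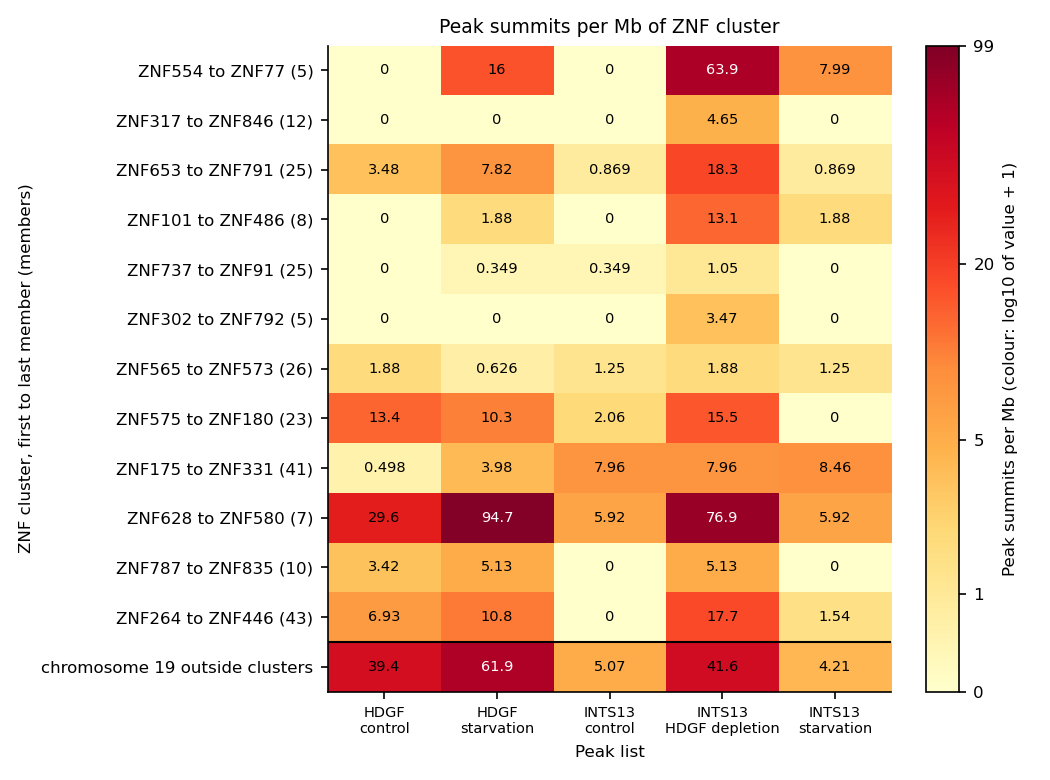
Peak summits per Mb in each of the 12 ZNF clusters (rows, first to last member with the number of members in parentheses) and on the rest of chromosome 19 (bottom row) in each peak list (columns), coloured on a log10 scale of value plus 1. The ZNF737 to ZNF91 row stays at or below 1.05 summits per Mb. The ZNF628 to ZNF580 row exceeds the chromosome outside clusters in 4 of the 5 lists, on 1 summit each for INTS13 control and starvation.

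HDGF summits were sparse in the cluster from ZNF175 to ZNF331 (chr19:51571283-53580269), at 0.498 and 3.98 per Mb in control and starved cells. The chromosome outside clusters had 39.4 and 61.9. This cluster had 41 members, of which only ZNF331, an imprinted gene, had a peak, yet it held 16, 16 and 17 INTS13 summits in control, HDGF-depleted and starved cells. Per Mb these are 7.96, 7.96 and 8.46, against 5.07, 41.6 and 4.21 outside clusters, thus below that rate after HDGF depletion. All 16 summits of the control list lay in a single stretch of 27.7 kb (chr19:53018344-53046063) between ZNF816 and ZNF160, 55.5 kb and 20.6 kb away. The stretch overlapped the lncRNA LOC124904758 and ERVV-2, a gene derived from an endogenous retroviral envelope. It held 6 and 12 INTS13 peaks in HDGF-depleted and starved cells and 0 and 6 HDGF peaks in control and starved cells. The stretch was singled out after its values were seen. Without it, the INTS13 summits of that cluster numbered 0, 10 and 5, and the INTS13 control summits within all cluster spans would lose 16 of 23.

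In all, 70 of the 250 members (28.0%, 22.5 to 34.0) had a boundary or a body peak in at least 1 list, and 180 (72.0%) had none. Among the other chromosome 19 genes 72.5% had at least 1. A boundary peak was found at 29 members in any list, in 1 list for 22 of them, in 2 lists for 6 and in 3 lists for ZNF524 alone. The 6 with 2 lists were ZNF254, ZNF507, ZNF574, ZNF428, ZNF784 and ZNF581, and no member had one in 4 or 5 lists. Body peaks were found at 67 members in any list, in 4 lists for ZNF574 alone. Of the 44 boundary peaks counted by member, the member was the nearest gene for 40, and ECSIT, DEDD2, CLASRP and FIZ1 were nearer for 1 each (at ZNF653, ZNF526, ZNF296 and ZNF524). Overlapping members can share a peak, as ZNF580 and ZNF581 did.

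**Figure D4:**
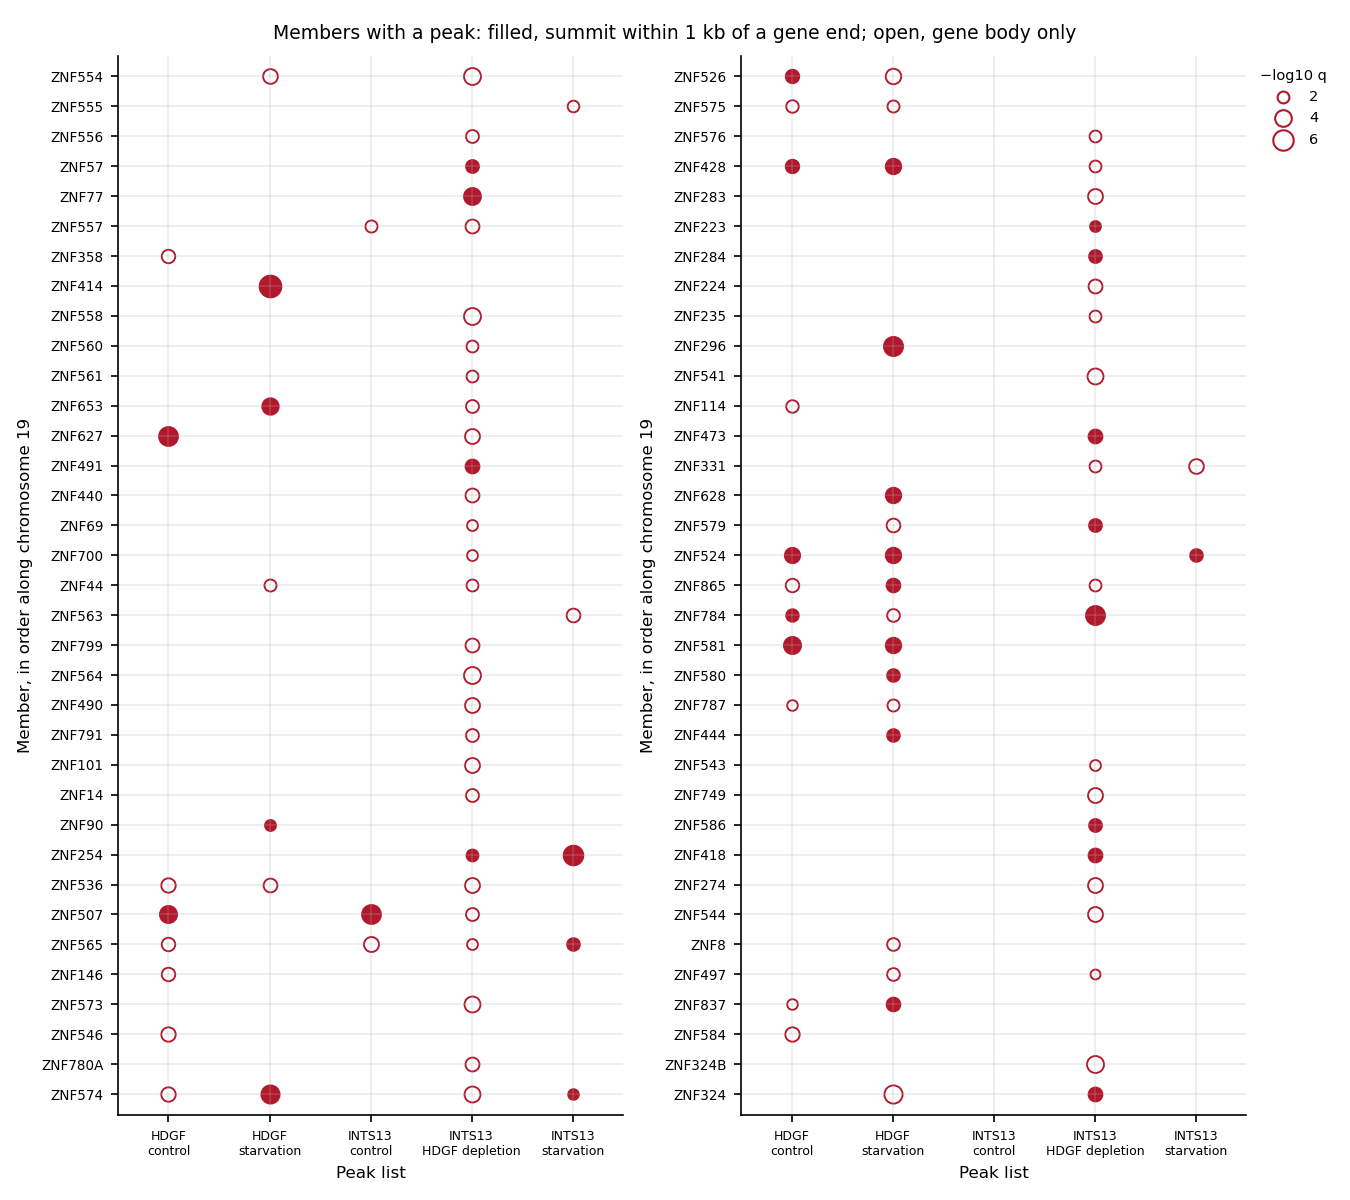
The 70 members with a peak (rows, in order along chromosome 19 in 2 columns of panels) in each of the 5 lists: filled circles, summit within 1 kb of a gene end; open circles, gene body only; circle area follows the highest −log10 q. Most rows carry a circle in a single list, and the INTS13 HDGF depletion column carries the most.

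ZNF507 (chr19:32345610-32387667) carried the single INTS13 boundary peak of control cells. The summit lay 15 bases upstream of the annotated start, inside the promoter printed above, with the authors' fold of 3.65 and −log10 q of 5.17. No boundary peak of INTS13 was found there after HDGF depletion or in starved cells. The depletion list had a body peak 19644 bases from the gene's end (fold 3.08). In control cells HDGF had 4 peaks inside the gene and 1 located 648 bases past its end (fold 2.86), and in starved cells none. The INTS13 and HDGF boundary peaks of control cells thus sat at opposite ends of this gene.

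ZNF784 (chr19:55620741-55624566), a short gene of 3.83 kb, had the strongest member peak of INTS13 after HDGF depletion, with a summit 768 bases past its end (fold 4.23, −log10 q 5.22). A further INTS13 peak of that list had its summit 32 bases from the start, in the printed promoter (fold 3.85). HDGF had a peak 412 bases past the end in control cells (fold 2.6) and a peak inside the gene in starved cells (fold 2.72), and neither INTS13 in control cells nor INTS13 in starved cells had any. ZNF579 nearby had an INTS13 peak after HDGF depletion 494 bases upstream of its start (fold 3.08) and an HDGF body peak in starved cells (fold 2.81).

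ZNF524 (chr19:55599574-55603138) had boundary peaks in 3 lists. In control cells the HDGF summit lay 577 bases outside its left end (fold 2.99) and nearer to FIZ1. In starved cells HDGF (fold 2.98) and INTS13 (fold 2.84) had overlapping peaks inside the gene, 958 and 659 bases from its right end. ZNF574 (chr19:42068477-42081552) showed the same overlap in starved cells, with HDGF and INTS13 summits 842 and 781 bases before its end (folds 3.34 and 2.61). In the middle of ZNF574 an HDGF peak of control cells (fold 2.86) overlapped an INTS13 peak found after HDGF depletion (fold 3.66). ZNF254 (chr19:24033449-24129968) had overlapping INTS13 peaks 170 bases inside its start after HDGF depletion (fold 2.89) and 336 bases inside in starved cells (fold 3.65, −log10 q 5.57). The starvation peak at ZNF254 was the strongest INTS13 peak of a member in that list.

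Peaks of members were seldom found again in another list. Of the 26 distinct HDGF peaks at members in control cells, 1 (3.85%, 0.0973 to 19.6) was overlapped in any of the other 4 lists, against 29.8% of the 1562 peaks at other chromosome 19 genes. For HDGF in starved cells 2 of 47 (4.26%, 0.52 to 14.5) were overlapped, against 19% of the 2585 at other genes. None of the 26 HDGF control peaks at members was overlapped by an HDGF starvation peak, whereas 379 of 1562 at other genes were. For INTS13 after HDGF depletion 2 of 80 (2.5%, 0.304 to 8.74) were overlapped in another list, against 20.0%. The 3 INTS13 control peaks at members were not overlapped in any list (upper limit 70.8%), against 69.0% of 84 at other genes, and 3 of 8 in starved cells were (37.5%, 8.52 to 75.5), against 69.8% of 86. The overlaps at members were those described at ZNF524, ZNF574 and ZNF254. Overlap between lists also depends on how dense the peaks are. Summits per Mb were 22.4 and 16.5 times as high in other genes for the HDGF lists, and 11.2, 4.59 and 2.96 times for INTS13. The part of density in these overlaps was not tested.

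**Figure D5:**
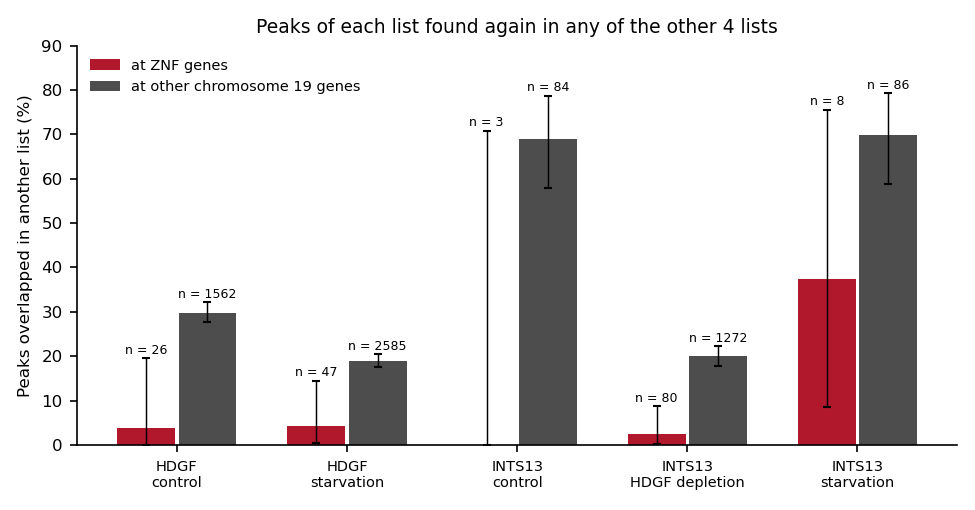
Share of peaks of each list (%) that share at least 1 base with a peak of any of the other 4 lists, for peaks at chromosome 19 ZNF genes (red) and at other chromosome 19 genes (grey), with exact 95% intervals and the number of peaks above each bar. The red bars of the HDGF lists and of INTS13 after HDGF depletion lie at or below 4.26%, below the grey bars of the same lists at 19% to 29.8%.

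Peaks at members had low folds, as did most peaks of the chromosome. Their median fold was 2.73 and 2.81 for the control and starvation lists of HDGF and 3.11, 3.08 and 2.87 for INTS13 in control, HDGF-depleted and starved cells. The medians over all chromosome 19 peaks were 2.73, 2.81, 3.11, 3.08 and 3.01 in the same order. The highest member fold ranged from 3.51 to 4.23 over the 5 lists, and the highest at other chromosome 19 genes from 4.94 to 6.21, among 3 to 80 and 84 to 2585 peaks, and a maximum depends on the number of peaks. A −log10 q of at least 5 was reached by 1 of 26 member peaks of HDGF in control cells (3.85%, other chromosome 19 genes 3.84%) and by 2 of 47 in starved cells (4.26%, 5.92%). The highest −log10 q of a member peak in the 5 lists was that of HDGF in starved cells inside ZNF414 (chr19:8509678-8514167), at 6.83 with a fold of 3.88. The strongest of HDGF in control cells lay 744 bases upstream of ZNF627 (fold 3.51, −log10 q 5.18).

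Split by gene end, the 219 members with a known strand had HDGF summits within 1 kb of the start at 2 and 4 members in control and starved cells, and within 1 kb of the end at 5 and 9. These are 0.913% and 1.83% at the start and 2.28% and 4.11% at the end. For INTS13 the counts at the start were 1, 5 and 2 in control, HDGF-depleted and starved cells (0.457%, 2.28% and 0.913%), against 1.86%, 10.7% and 2.48% of the other chromosome 19 genes and 3.74%, 13.9% and 5.86% of all genes. At the end they were 0, 6 and 1 (0.0%, 2.74% and 0.457%), against 0.311%, 9.11% and 0.311% of the other chromosome 19 genes and 2.1%, 10.8% and 2.05% of all genes. Other chromosome 19 genes also had HDGF peaks more often at the end than at the start, 12.1% against 7.56% in control cells and 24.9% against 13.3% in starved cells, as did all genes (14.3% against 10.4%, and 14.9% against 13.3%). Inside the gene, 23 of 44 HDGF summits of starved cells at members (52.3%) fell in the last of 3 equal segments, against 45.6% at other genes. In control cells 2 of 19 did (10.5%), against 27.1%. Single members supplied several of these summits, with 5 in ZNF653 and 4 in ZNF628 in the starvation list.

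Few promoter windows were overlapped by a peak, among members and among other genes. Of the 219 member promoters, 0 were overlapped by HDGF peaks of control cells (exact 95% upper limit 1.67%), against 0.932% of 966 other chromosome 19 promoters and 2.43% of all 15841. HDGF peaks of starved cells overlapped 1, ZNF628 (0.457%, 0.0116 to 2.52), against 4.76% and 5.93%. INTS13 peaks overlapped 1 in control cells (ZNF507, 0.457%), 2 after HDGF depletion (ZNF579 and ZNF784, 0.913%) and 1 in starved cells (ZNF565, 0.457%). The other chromosome 19 promoters were overlapped in 1.24%, 2.9% and 1.45% of cases in the same INTS13 lists and all promoters in 2.05%, 5.66% and 4.17%. The 5 overlapped windows, of ZNF507, ZNF784, ZNF579, ZNF628 and ZNF565, had a GC content of 69.0%, 66.3%, 69.7%, 67.7% and 65.3%, all above the members' median of 60.0%. The printed windows of ZNF91 and ZNF577 had 57.3% and 57.7%.

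Motifs were searched on both strands of the member promoters, as letters only. CCAAT, the box bound by NF-Y, was in 53.9% of member promoters, against 37.4% of the other chromosome 19 promoters and 36.4% of all promoters. GGGCGG, the GC box bound by SP proteins, was in 67.1% of member promoters, 65.7% of the others and 58.3% of all. The E-box CACGTG was in 4.11% of member promoters, 8.49% of the others and 8.83% of all. The element TCGCGA was in 3.65%, 3.93% and 4.39% of the same sets, ACTACAA (a core of the ZNF143 motif) in 5.02%, 2.69% and 3.13%, and GCGTGGG (an EGR motif) in 10.0%, 8.28% and 8.32%. In percentage points the gap between members and the other chromosome 19 promoters was widest for CCAAT, and as a ratio it was wider for CACGTG and ACTACAA, which were found in only 9 and 11 member promoters. CCAAT was in 50.0% of the 26 promoters of members with a boundary peak and in 54.2% of the 153 of members without any peak. GGGCGG can overlap GCGTGGG, and a match is a description of letters, not of binding.

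Starvation was set against control for HDGF by the presence of boundary peaks, with the control depletion named in the control titles only. Kept genes were those with a boundary peak in both lists, lost genes only in control cells and gained genes only in treated cells, which describes presence in a list and not a tested change. There were 3 kept members (1.2%, against 10.3% of the other chromosome 19 genes and 10.1% of all genes). A further 4 were lost (1.6%, against 7.49% and 9.18%) and 10 gained (4.0%, against 21.8% and 11.5%). Of the 7 members with a boundary peak in control cells, 42.9% were thus kept, against 57.9% of 214 other chromosome 19 genes and 52.5% of 3868 over all genes. The kept share moved with the window: within 500 bp 0 of 3 members were kept, against 44.5% of the other chromosome 19 genes, and within 2500 bp 12 of 16 (75.0%), against 78.1%. The kept members were ZNF428, ZNF524 and ZNF581, and in none of them did the 2 lists' peaks overlap. At ZNF581 the HDGF summit lay 234 bases past the end in control cells (fold 3.25) and 670 bases before it in starved cells (fold 3.07). At ZNF428 it lay 553 bases past the end in control cells (fold 2.73) and 646 bases before it in starved cells (fold 2.98). The lost members were ZNF627, ZNF507, ZNF526 and ZNF784. Among the gained, ZNF296 (fold 3.52, nearer to CLASRP), ZNF574 (fold 3.34), ZNF653 (fold 3.16, nearer to ECSIT) and ZNF414 (fold 3.07) had the strongest boundary peaks. Counted over the gene body, 8 members were kept (3.2%), 7 lost (2.8%) and 16 gained (6.4%), against 33.0%, 6.08% and 19% of the other chromosome 19 genes and 27.4%, 18.2% and 10.5% of all genes. Of the 15 members with a body peak in control cells, 53.3% were kept, against 84.4% of such other genes on the chromosome and 60.1% over all genes. A gene with several peaks has more chances to count as kept. Counted by gene, 20 control peaks lay over the 15 members and 1528 over 469 other chromosome 19 genes. The part of peak number in the kept shares was not tested.

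For INTS13, HDGF depletion and starvation were both set against the same control list, which held a boundary peak at ZNF507 alone. After HDGF depletion 0 members were kept, against 1.92% of the other chromosome 19 genes and 3.88% of all genes. In the same order of sets, 1 was lost (against 0.416% and 0.894%) and 12 were gained (4.8%, against 16.6% and 15.2%). The strongest of the gained were ZNF784 (fold 4.23), ZNF77 (fold 3.85, 308 bases past the end), ZNF324 (fold 3.27) and ZNF418 (fold 3.27). ZNF473, whose product acts in the processing of replication-dependent histone transcripts, was also gained (fold 3.27, 730 bases inside its left end) and had 3 body peaks in that list. Over the gene body, ZNF557, ZNF507 and ZNF565 had a peak in both lists, 0 members were lost and 43 were gained (17.2%). The kept, lost and gained shares were 3.75%, 0.833% and 42.5% of the other chromosome 19 genes and 11.0%, 0.639% and 35.0% of all genes. None of the 3 INTS13 control peaks at members was overlapped by a depletion peak, against 44 of 84 at other chromosome 19 genes.

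In starved cells 0 members were kept for INTS13, against 1.17% of the other chromosome 19 genes and 2.56% of all genes. In the same order of sets, ZNF507 was lost (against 1.17% and 2.22%) and 4 were gained (1.6%, against 1.92% and 4.16%). The gained members were ZNF254 (fold 3.65), ZNF524 (fold 2.84), ZNF565 (fold 2.84, 205 bases upstream of its start) and ZNF574 (fold 2.61). ZNF574 and ZNF524 also had an HDGF boundary peak in starved cells, which is 2 of the 13 members of the HDGF list (15.4%) and 2 of the 4 of the INTS13 list (50.0%). In control cells ZNF507 had a boundary peak of both proteins, 1 of 7 for HDGF (14.3%) and the only member for INTS13. Over the gene body 0 members were kept, 3 were lost (1.2%) and 6 were gained (2.4%) for INTS13 in starved cells, against 1.67%, 2.91% and 2.66% of the other chromosome 19 genes and 5.94%, 5.73% and 4.35% of all genes. The gained share of members was near that of the other chromosome 19 genes.

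Members with many body peaks were few. ZNF536 (chr19:30225592-30713586), which encodes a repressor of neuronal differentiation, had 13 body peaks over all lists and no boundary peak, and with 488.0 kb it is the longest member. Its peaks came from HDGF in control cells (1), HDGF in starved cells (3) and INTS13 after HDGF depletion (9). ZNF574 followed with 9 in 13.1 kb, then ZNF507 and ZNF653 with 6 each and ZNF541, a germ cell gene, with 4, all of INTS13 after HDGF depletion. The longest members without a peak were ZNF420 (122.0 kb), ZNF91 (90.5 kb) and ZNF577 (83.5 kb). Several members with known targets also had none: ZNF93, which represses LINE-1 elements, ZNF417 and ZNF587, which bind endogenous retroviral elements, and ZNF45, ZNF180, ZNF568 and ZNF43. ZNF274, a KRAB protein that itself binds the ends of ZNF genes and brings SETDB1 there, had 1 body peak, of INTS13 after HDGF depletion (fold 3.46). ZNF331 had 3 body peaks and ZNF44 had 2.

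Genes whose products act in KRAB repression were counted as a list of 22, placed on several chromosomes and including ZNF274. HDGF body peaks lay over 17 of them in control cells and 11 in starved cells, which is 77.3% (54.6 to 92.2) and 50.0% (28.2 to 71.8), against 45.5% and 37.8% of all genes. INTS13 body peaks lay over 4, 15 and 1 of them in control, HDGF-depleted and starved cells (18.2%, 68.2% and 4.55%), against 11.7%, 46.0% and 10.3%. Boundary peaks were found at 7 and 3 for HDGF (31.8% and 13.6%, all genes 19.3% and 21.7%) and at 0, 6 and 0 for INTS13 (0.0%, 27.3% and 0.0%, all genes 4.77%, 19.1% and 6.71%). Of these 10 shares, those of body peaks for HDGF in control cells and for INTS13 after HDGF depletion stood farthest above all genes. The lower end of the second interval (45.1 to 86.1) lies below the share of all genes. In both lists the body shares of other chromosome 19 genes were higher in longer classes. The 22 genes were not matched to all genes by length, and the part of length in their shares was not tested. TRIM28, the KRAB corepressor gene, lies near the telomeric ZNF cluster at chr19:58544064-58550715 and had 3 and 5 HDGF body peaks in control and starved cells and 2 INTS13 body peaks after HDGF depletion. SETDB1 had 20 and 6 HDGF body peaks in control and starved cells and 17 INTS13 body peaks after HDGF depletion. Chromosome 19 genes with other zinc finger prefixes (ZFP, ZSCAN, ZIM, ZIK and ZBTB, with PEG3 and MZF1) numbered 20, and ZFP36, a CCCH zinc finger RNA-binding protein, entered by its prefix. Body peaks lay over 3 and 4 of them for HDGF (15.0% and 20.0%, against 39.1% and 52.0% of the other chromosome 19 genes, which include them) and over 0, 5 and 1 for INTS13 (0.0%, 25.0% and 5.0%, against 4.58%, 46.3% and 4.33%), and ZBTB7A and ZBTB45 held most of these peaks.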

How the data were processed

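The data comprised 5 deposited peak lists, 1 for each ChIP group of 2 labelled replicates in HEK293T cells. The submitters' processing notes name MACS2, Bowtie, Trimmomatic, Picard and FastQC, with hg38 as the build. Not given in the sources used here are their versions, the way replicates were combined and the use of the inputs. For each peak the authors deposited an integer score, a summit offset, a fold enrichment, and the −log10 of p and of q. Folds and −log10 q values are the authors' own, and they served here to describe or rank peaks of the same list. The deposited peak names carry the value 0.05. The 6 input samples were not analysed here.

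Genes, strands and promoters came from RefSeq tables of GRCh38.p14, and the strand was known for members with a promoter entry. Counting was done with Python 3.11.15, pandas 2.3.3 and SciPy 1.17.1, and the counting code was tested on simulated data. Shares have exact Clopper-Pearson 95% intervals, and differences of shares have Newcombe intervals from statsmodels 0.14.6. No test between conditions was possible with 1 list per group, so there are no p-values. The background in reads per position was derived from the relation of fold to p within each list, and no read totals were used.

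Members and lists were chosen with earlier results of these data known. Named genes followed a rule: members with a boundary peak in at least 3 lists, the 5 strongest boundary peaks of each list by −log10 q, the 4 strongest kept, lost and gained members of each comparison, the 5 members with most body peaks, the 3 longest without a peak, and a fixed set of known genes, of which ZNF268 is not a member. Other members were named after their values were seen. Zinc finger number and KRAB box were not analysed here, since no protein table was used. For that reason the 2 promoters of members without a peak were taken from the longest such members with a promoter entry, in place of those with most zinc fingers. Alternatives covered the boundary window, the peak threshold, equal list lengths, merged members, symbols with a hyphen and the comparison genes.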

Additional observations from a re-analysis of the deposited data

How the results depend on the processing

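Of 252 values recomputed over 29 results and 12 settings, 66 moved beyond the 95% counting interval of the reported value, or for counts of members by over 1.5 times, and 186 did not. Of these 186, 6 shares still differed by over 1.5 times from the reported ones. With 500 bp the boundary share was 1.2% for HDGF control (reported 2.8%) and 0.8% for INTS13 starvation (1.6%), and with 2500 bp it was 1.6% for INTS13 control (0.4%). With a −log10 q of at least 3 it was 1.2% for HDGF control and 2.8% for HDGF starvation (5.2%), and with lists of equal length the body share for INTS13 control was 0.4% (1.2%). No boundary or body difference changed sign: all 110 between members and comparison genes stayed below 0. Several of the reported differences had intervals that included 0, so their sign alone says little. Differences at the start or end alone were not among the 110, and that of INTS13 starvation at the end was 0.146 points. INTS13 starvation is the list of 15639 peaks, so equal lengths could not change its values. Merging overlapping members, leaving out symbols with a hyphen, a −log10 q of at least 2 and comparison genes outside the clusters moved no result by this measure. Leaving out a replicate was not possible, because each group has 1 list. No paired analysis was possible because the 2 replicates of each group were combined in 1 list. The causes of the shifts below were not tested beyond what each setting itself removes or adds. Lists are named HDGF control, HDGF starvation, INTS13 control, INTS13 depletion and INTS13 starvation, and differences are members minus other chromosome 19 genes in percentage points.

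With a window of 500 bp the boundary share for HDGF starvation was 2.0%. The boundary differences were −7.96 for HDGF control, −19.0 for HDGF starvation and −5.88 for INTS13 depletion. In HDGF starvation 0 members were kept and 5 gained, and in INTS13 starvation 2 were gained. With 2500 bp the boundary shares were 6.4% for HDGF control and 10.4% for INTS13 depletion, and the differences −32.4 for HDGF control, −41.9 for HDGF starvation and −25.7 for INTS13 depletion. HDGF starvation then kept 12 members, INTS13 depletion kept 1, lost 3 and gained 25, and INTS13 starvation lost 4. Counting any base in the window gave −31.0 for HDGF starvation.

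Keeping peaks whose −log10 q reached 3, the boundary share was 0.8% for INTS13 depletion and 0.4% for INTS13 starvation, and the differences −5.38 for HDGF control, −15.3 for HDGF starvation and −5.2 for INTS13 depletion. The body shares in HDGF control, HDGF starvation, INTS13 depletion and INTS13 starvation were 0.4%, 4.4%, 6.8% and 0.8%, with differences of −20.4, −32.7 and −12.2 for the first 3 of these. HDGF starvation lost 1 and gained 5 members, INTS13 depletion gained 2 and INTS13 starvation 1. With the strongest 15639 peaks of every list, the boundary shares were 0.4% for HDGF control, 0.8% for HDGF starvation and 0.4% for INTS13 depletion, with differences of −1.35, −5.69 and −1.18. The body shares were 0.0%, 1.6% and 0.0% for the same lists, with differences of −6.83, −17.1 and −4.41. HDGF starvation kept 0 members, lost 1 and gained 2, and INTS13 depletion gained 1.

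Against other genes inside the clusters the boundary differences in HDGF control, HDGF starvation, INTS13 depletion and INTS13 starvation were −0.426, −4.48, −6.49 and −3.24, and the body differences −6.9 for HDGF control, −11.4 for HDGF starvation and −5.79 for INTS13 depletion. Against ZNF genes of other chromosomes the boundary differences were −16.1 for HDGF starvation, −7.06 for INTS13 control and −9.59 for INTS13 starvation, and the body differences −25.1, −12.6 and −12.5 for the same lists. Within classes of gene length the body differences were −40.8 for HDGF control, −49.0 for HDGF starvation and −41.5 for INTS13 depletion.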
